A study of Mus musculus with 8 samples.

Results

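The comparison sets a mouse that lacks the span from Snrpn to Ube3a on its paternal chromosome against mice that keep this span on the paternal chromosome but lack the paternal Snrpn promoter. Both genotypes target paternal minus-strand RNA, by deleting its template or by deleting the promoter that drives it. The question is how much minus-strand signal is left and how much sense Ube3a RNA each genotype has. The 3 arrays of the comparison were chosen by title out of 8 in the series: "del +/s-u" (the paternal deletion), "del s-u/0.9" (the first double deletion) and, last, "del s-u/4.8" (the second double deletion). The double deletions carry the Snrpn-to-Ube3a deletion on the maternal chromosome and a deletion of the Snrpn promoter, named 0.9 or 4.8, on the paternal one. The title and the genotype label of these samples name opposite promoter alleles, so each is called here by its title alone and no value is assigned to an allele. All samples were total RNA of cerebral cortex from C57BL/6 mice at postnatal day 0. Wild type (2 arrays) and the maternal deletion alone (1 array, titled "del s-u/+") serve as references, and the 2 polyA arrays were not used here. Each of the 3 mutant samples was measured once, and how many animals stand behind a sample is not stated.

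Ube3a encodes a ubiquitin ligase that neurons express mainly from the maternal chromosome. On the paternal chromosome a long minus-strand transcript starts at Snrpn and runs through clusters of small nucleolar RNA genes into Ube3a, where it is called Ube3a-ATS, the antisense transcript. The maternal Snrpn promoter is methylated and silent, so the antisense transcript comes from the paternal chromosome, and its loss is known to release paternal Ube3a. In the paternal deletion the remaining copy of the span is maternal, whereas in both double deletions it is paternal. Each of the 3 samples thus has 1 copy of the deleted span and 2 copies of the sequence outside it. The bases lost with the paternal Snrpn promoter are an exception in both double deletions, and their place was not known here.

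The promoters at the start of these transcripts are shown because the promoter deletion acts on one of them. They are windows of 300 bases around a RefSeq start, 50 of them after it, in build GRCm38.p6, a later build than the mm9 of the array, and the sources used here do not give which bases the 0.9 and 4.8 alleles lack. Capitals mark CGCATGCG, a motif that equals its own reverse complement and was picked after the windows were in view.
Snrpn and Snurf, chr7:60005150-60005449, minus strand: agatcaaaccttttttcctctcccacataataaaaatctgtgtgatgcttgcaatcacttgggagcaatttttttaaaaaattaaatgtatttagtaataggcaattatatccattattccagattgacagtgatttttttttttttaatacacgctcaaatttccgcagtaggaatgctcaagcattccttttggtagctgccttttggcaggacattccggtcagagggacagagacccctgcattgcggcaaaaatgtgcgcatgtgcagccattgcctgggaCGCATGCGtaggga
Snrpn and Snhg14, outermost start, chr7:60450128-60450427, minus strand: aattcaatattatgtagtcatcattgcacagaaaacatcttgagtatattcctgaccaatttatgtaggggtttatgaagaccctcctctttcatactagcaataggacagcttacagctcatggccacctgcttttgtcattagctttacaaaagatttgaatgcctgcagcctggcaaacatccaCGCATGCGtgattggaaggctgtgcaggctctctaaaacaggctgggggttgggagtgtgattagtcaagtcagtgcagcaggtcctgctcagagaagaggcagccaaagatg
Ube3a, chr7:59228500-59228799, plus strand: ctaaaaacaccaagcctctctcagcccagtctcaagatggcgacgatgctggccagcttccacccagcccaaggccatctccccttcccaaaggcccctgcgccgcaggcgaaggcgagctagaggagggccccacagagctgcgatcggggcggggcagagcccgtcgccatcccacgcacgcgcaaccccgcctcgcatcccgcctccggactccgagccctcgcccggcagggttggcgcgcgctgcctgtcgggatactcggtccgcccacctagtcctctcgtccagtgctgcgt
The motif occurred once in each of the 4 Snrpn windows of the table, at base 287 of the first window printed and at base 188 of the second, and not in the Ube3a window. Of 32817 promoter windows of this length, 611 (1.862%) held it. Apart from the Snrpn and Snurf window, the Snrpn windows share long stretches of sequence, so their matches are not independent of each other. The Ube3a window held 29 CpG dinucleotides and was 69% G and C, against 7 CpG and 40.3% for the Snrpn and Snurf window and 2 CpG and 45% for the outermost Snrpn window.

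The array tiles both strands of chromosome 7 from 65890585 to 67700765 (1810.2 kb, mm9) with 50496 probes, and 3338 further probes lie outside. A level is the mean log2 signal of a region or bin minus that array's 75th percentile over its outside probes, and bins are 10 kb of 1 strand. Median red intensity was 98 on the paternal-deletion array and 132 and 153 on the arrays of the first and the second double deletion, over a background of 36 to 37. Between 83.7% and 86.6% of their spots were well above background, and the green channel was blank (median 27). Tests are limma's, over 356 bins and 26 regions together. In these tests the spread comes from the wild-type pair only, and a lone mutant array is assumed to vary like a wild type. With the double deletions taken as 1 group instead, which puts their mutual difference into the spread, no bin and no region passed limma's test. Both comparisons share the paternal-deletion array, so they are not independent of each other. The choice of scale matters. Scaling on the 75th percentile of all probes, most of which lie in the locus itself, moved the median difference over all bins from 0.02 to 0.45 against the double deletion titled del s-u/0.9 and from -0.14 to 0.98 against the one titled del s-u/4.8. Every direction below is therefore relative to the outside probes, and called differences that turn on the all-probe scale are named. Cortex markers could not be checked, because the files name no genes for the outside probes.

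The deletion showed at the same place on all 4 mutant arrays. Against wild type, plus-strand signal stepped between the probes at 66526853 and 66526901, inside Ube3a, and between those at 67147632 and 67147710, at the Snrpn end. At the Ube3a step the mean difference from wild type went from 0.17 to -0.11 in the paternal deletion, from 0.24 to -0.23 in the double deletion titled del s-u/0.9 and from 0.40 to -0.34 in the one titled del s-u/4.8. The place of a step does not tell on which parental chromosome the deletion lies. Ube3a is split at this border into a 3′ part inside the deletion (66526901 to 66570000) and a 5′ part outside it (66480001 to 66526900), with outer borders rounded to whole bins since no annotation of this build was used.

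Minus-strand RNA between Ube3a and Snrpn (66570001 to 67147709, 6410 probes) was lowest in the paternal deletion. Its level was 0.44 there, 1.44 in the double deletion titled del s-u/0.9 and 2.97 in the one titled del s-u/4.8, against 4.23 and 4.12 in the wild types and 3.97 in the maternal deletion. All 3 arrays lay below both wild types, and the double deletions lay apart from each other. It was lower by 0.998 in the paternal deletion than in the double deletion titled del s-u/0.9 (SE 0.07, adjusted p = 0.00595) on the log2 scale, where an offset of 50 is added to each signal and shrinks the differences. Against the one titled del s-u/4.8 the difference was -2.53 (SE 0.07, adjusted p = 0.000712). On background-subtracted linear signal, the ratios of the double deletions to the paternal deletion were 5.83 and 28. Plus-strand levels of the same span were 0.38, 0.35 and 0.48 on the 3 arrays, and neither difference passed the test (0.03, adjusted p = 0.769, and -0.10, adjusted p = 0.297). As linear shares of wild type, the plus strand had 77.1%, 77.6% and 86%, the same order as the minus strand over a much smaller range. In the 270-kb stretch described next, the plus strand had 69.8%, 75.1% and 88.7%.

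**Figure D1:**
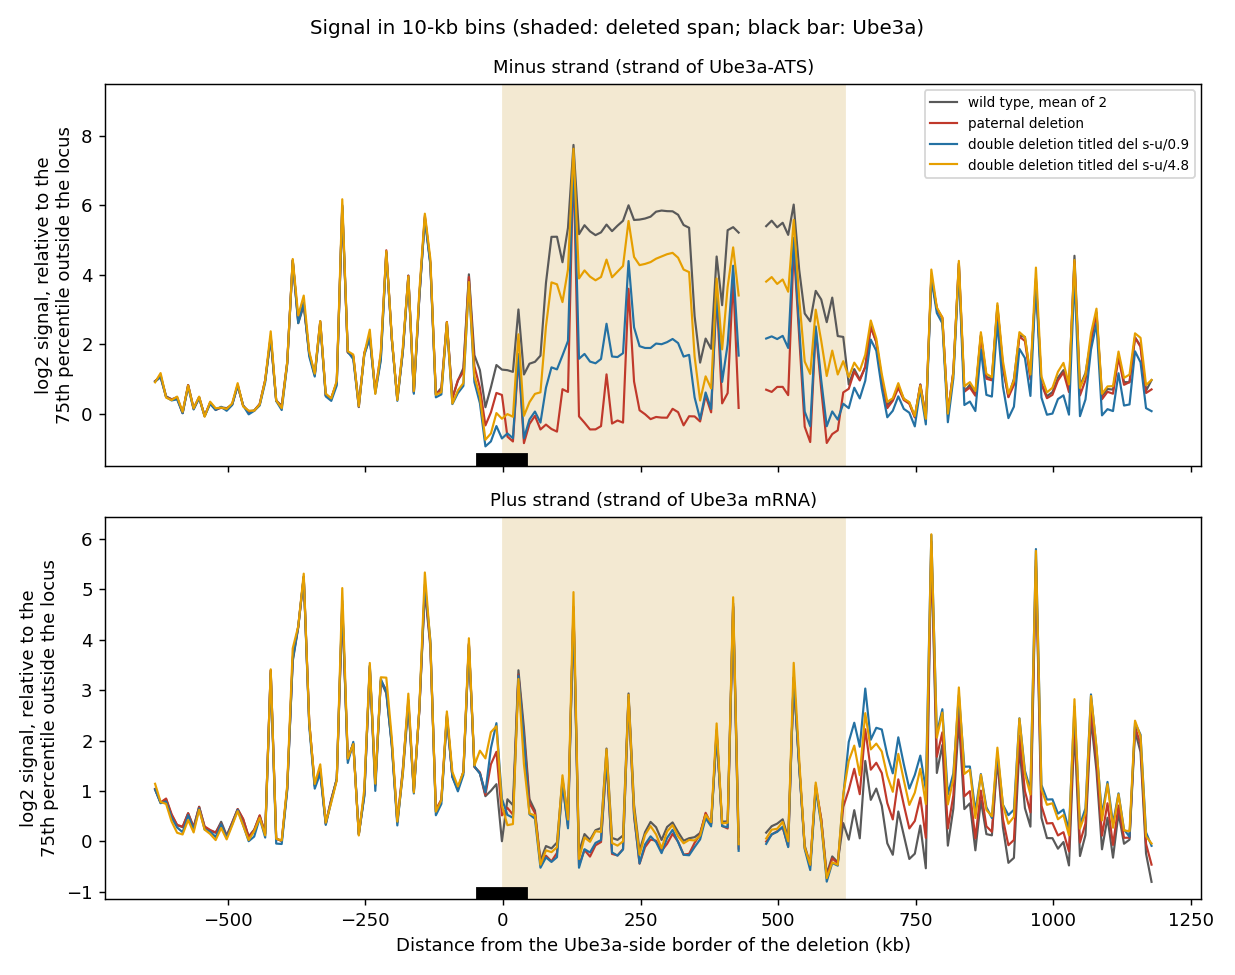
Mean log2 signal per 10-kb bin on the minus strand (top) and the plus strand (bottom), against the distance in kb from the Ube3a-side border of the deletion, for the wild-type mean, the paternal deletion and both double deletions. Inside the shaded deleted span the minus-strand lines are ordered paternal deletion, titled del s-u/0.9, titled del s-u/4.8, wild type over most bins. The plus-strand lines nearly coincide there, except over the Ube3a 3′ part. Over that part the plus-strand means are 1.40, 1.32 and 1.10 in the same order of mutant arrays, and 1.56 in wild type.

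On the log2 scale with the offset, the differences were largest in the bright stretches. Over the 270-kb bright stretch (66600001 to 66870000), where wild types had 5.54 and 5.34, the paternal deletion had 0.36, the double deletion titled del s-u/0.9 had 2.06 and the one titled del s-u/4.8 had 4.25. The differences were -1.70 and -3.88 (SE 0.12, adjusted p = 0.00595 and 0.000712), and the linear ratios of the double deletions to the paternal deletion were 7.33 and 48.1. The second bright stretch, 130 kb nearer to Snrpn (66930001 to 67060000), had 1.36, 2.58 and 4.01 on the 3 arrays. Its differences were -1.22 and -2.65 (SE 0.05, adjusted p = 0.00485 and 0.000501), and its linear ratios 2.97 and 10.5. In both bright stretches the order of the 3 arrays was the same. The small nucleolar RNA clusters of the transcript were not placed on them, since no annotation of mm9 was used.

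The dimmer stretches had smaller differences on that scale, while on the linear one the order was mixed. In the 60-kb dim stretch between the bright ones (66870001 to 66930000) the levels were 0.55, 0.82 and 1.51, and both differences passed (-0.27, adjusted p = 0.0308, and -0.96, adjusted p = 0.00219). Nearer to Snrpn, from 67060001 to 67120000, levels were 0.35, 0.70 and 1.90. There the difference from the double deletion titled del s-u/0.9 did not pass (-0.35, adjusted p = 0.0527), while that from the one titled del s-u/4.8 did (-1.55, adjusted p = 0.00234). At the Snrpn end itself (67120001 to 67147709) the levels were -0.40, -0.01 and 1.44, with differences of -0.39 (adjusted p = 0.0321) and -1.84 (adjusted p = 0.00106). In the first 30 kb next to Ube3a (66570001 to 66600000) the levels were -0.28, -0.13 and 0.50. Only the difference from the double deletion titled del s-u/4.8 passed there (-0.78, adjusted p = 0.00247, against -0.15, adjusted p = 0.0829). On the all-probe scale the sign turned in the dim stretch and next to Ube3a in both comparisons, and in the 2 stretches nearest to Snrpn against the first double deletion. The linear ratios at the Snrpn end were 5.32 and 36.7, and those of the stretch before it 4.73 and 24.3. They lay above the ratios of the 130-kb bright stretch and below those of the 270-kb one. The dim stretch had 2.06 and 5.56, and the 30 kb next to Ube3a had 2.56 and 9.20, below both bright stretches. At the Snrpn end, before it and next to Ube3a, the paternal deletion lay within the range of the negative controls. Ratios there are not resolved from background.

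Bin counts give a similar picture at finer grain, with exceptions against the first double deletion. In the dim stretch the bins ran from -0.62 to -0.07 with a median of -0.10, against -0.27 for the whole stretch. From 67060001 to 67120000 some bins were called lower, while the whole stretch was not. The 3 minus-strand bins at the Snrpn end had differences of -0.65, -0.31 and 0.33 from the first double deletion. The 0.33 belongs to the bin from 67140001, which reaches past the border. Against the second double deletion these bins ran from -2.40 to -0.90. Of all 356 bins, 41.6% were called in either direction against the double deletion titled del s-u/0.9 (15.4% higher and 26.1% lower in the paternal deletion) and 36.2% against the one titled del s-u/4.8 (2.81% higher and 33.4% lower). The all-probe scale, with its shift of all bins, gave 269 higher and 53 lower in the first comparison and 313 higher and 41 lower in the second. In the 270-kb bright stretch 26 of 27 minus-strand bins were called lower in each comparison, and in the 130-kb one 8 and 9 of 9. Of the 6 bins of the dim stretch 2 and 6 were called lower. Over the 3 bins next to Ube3a none was called lower against the first double deletion and all 3 were against the second. The median difference over all 178 minus-strand bins was 0.05 and -0.15. Set against the lower flank instead of the wild-type spread, 23.6% of the 258 bins outside that flank lay above the range of its 49 bins of the same strand and 45.3% below it in the first comparison, and 5.43% and 43% in the second. By that count all 27, 6, 9 and 6 minus-strand bins of the 270-kb, dim, 130-kb and next stretches lay below the range in both comparisons. The largest differences called in both comparisons were neighbours in the 270-kb stretch: the bin from 66820001 to 66830000 had -0.11 in the paternal deletion, 2.06 and 4.59 in the double deletions and 5.93 and 5.73 in the wild types. The bins starting at 66810001, 66800001, 66790001 and 66740001 came next, with differences from -2.11 to -2.00 against the first double deletion and from -4.64 to -4.51 against the second.

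**Figure D2:**
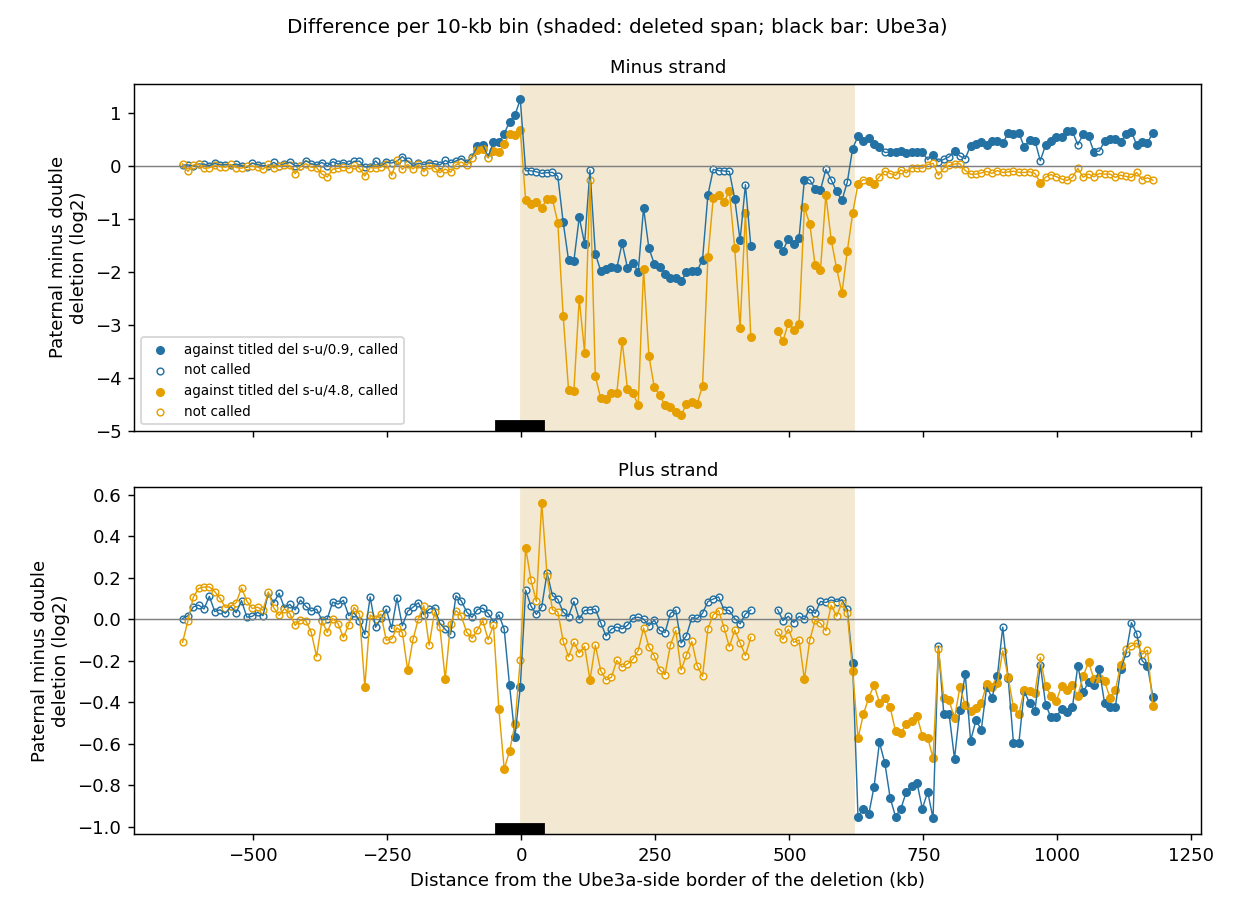
Paternal deletion minus each double deletion per 10-kb bin (log2), on the minus strand (top) and the plus strand (bottom), against the distance in kb from the Ube3a-side border. Filled points passed limma's test at an adjusted p of 0.05. Minus-strand differences are above 0 just outside the Ube3a border and mostly of opposite sign for the 2 double deletions beyond the Snrpn border. Inside the shaded deletion they are below 0, except for 0.33 in the last bin at the Snrpn end against titled del s-u/0.9. The all-probe scale raises all points of a comparison by the same amount, 0.44 and 1.13.

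As a share of wild type, the residual minus-strand signal was smallest in the paternal deletion. That sample has no paternal template in the span, so its share is not residual paternal RNA of the span. The double deletions keep a paternal copy, so the shares do not measure the same template. On background-subtracted linear signal, with the median over probes taken in each array, 1.13% of the wild-type level was left between Ube3a and Snrpn in the paternal deletion, 6.61% in the double deletion titled del s-u/0.9 and 31.8% in the one titled del s-u/4.8. The maternal deletion, which keeps the paternal copy and its promoter, had 79.5%. In the 270-kb bright stretch the shares were 0.774%, 5.67% and 37.2%. At the Snrpn end they were 0.905%, 4.82% and 33.2%. The shares of each double deletion were thus of one order along the whole span, from 4.82% to 9.93% for the first and from 22.6% to 37.2% for the second. Leaving out either wild type moved the share between Ube3a and Snrpn only within 1.11% to 1.16%, 6.45% to 6.79% and 31% to 32.6%.

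In 4 dim regions the paternal deletion lay within the range of the negative controls, so its shares there are not resolved from background. Its median linear level, in units of the scale value, was 0.084 at the Snrpn end, 0.061 opposite the Ube3a 3′ part, 0.097 next to Ube3a and 0.132 from 67060001 to 67120000. The 95th percentile of the 660 negative-control spots on that array was 0.133. At the Snrpn end and opposite the 3′ part, 58.9% and 52.5% of its probes were well above background, against 90.6% and 87.7% in the double deletion titled del s-u/0.9 and 99% and 98.4% in the one titled del s-u/4.8. The 270-kb bright stretch was measurable on all 3 arrays, with 95.8% of probes well above background in the paternal deletion and a median level of 0.547. The double deletion titled del s-u/0.9 was at 4.01 and the one titled del s-u/4.8 at 26.3 there. Opposite the Ube3a 5′ and 3′ parts the double deletion titled del s-u/0.9 was itself within the negative-control range, at 0.168 and 0.224. The 95th percentile of those spots on its array was 0.232, so its shares there are not resolved from background.

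**Figure D3:**
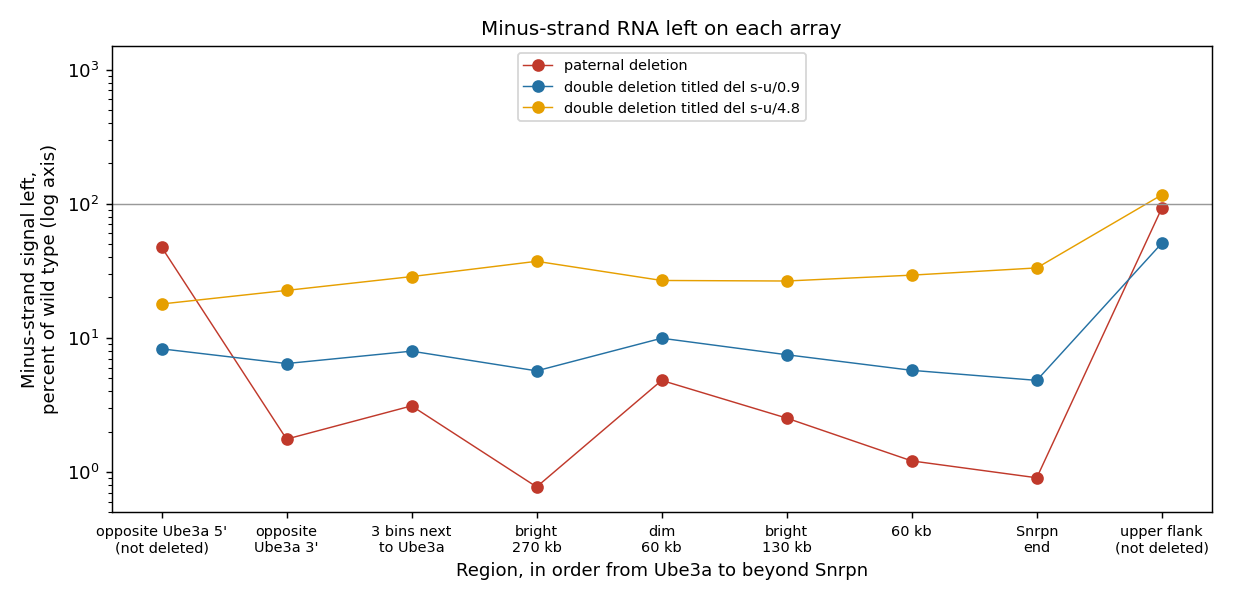
Minus-strand signal left on each of the 3 mutant arrays as a percent of the wild-type level (log axis), by region in order from Ube3a to beyond Snrpn; each point is 1 array. The paternal deletion is lowest in every region inside the deletion, from 0.774% to 4.82%, but highest opposite the undeleted Ube3a 5′ part, at 47.5%.

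By the median over probes, a few bins kept most of their signal in every genotype. Of the 59 minus-strand bins inside the deletion, the paternal deletion had a lower share of wild type than the double deletion titled del s-u/0.9 in 54, and that one had a lower share than the one titled del s-u/4.8 in 59. The exceptions on this measure started at 66650001, 66750001, 66910001, 66940001 and 67050001, and these were also the 5 bins with the highest share left on each of the 3 arrays. The bin from 67050001 to 67060000 had 95.4%, 90.2% and 94.1% left, and that from 66650001 to 66660000 had 95%, 90.1% and 93.3%. The mean log2 levels of these bins show more loss, and by them the paternal deletion was below the first double deletion in all 5. The level of the bin at 66750001 was 3.60 in the paternal deletion, 4.40 and 5.55 in the double deletions and 6.05 and 5.95 in the wild types. That at 67050001 was 4.80, 5.06 and 5.58, against 6.06 and 5.98. These bins were bright on the plus strand too: the bin at 66650001 had 4.53 and 4.55 on the plus strand of the wild types and 4.65, 4.61 and 4.94 on the 3 mutant arrays. Across the 52 bins with a wild-type plus-strand level of at most 2, the paternal deletion kept 0.414% to 33.9% (median 1.16%), the first double deletion 3.57% to 42.3% (median 5.91%) and the second 19.5% to 61.9% (median 35.1%). In these 52 bins the median share of the paternal deletion was below the double deletion titled del s-u/0.9 in 52 of 52. This count carries no separate weight, since the cut was chosen after the data were seen and removes all 5 exceptions. Some of the 52 bins are also too dim to resolve. The share of 0.414% came from a level of 0.076, under the negative-control 95th percentile of 0.133. In the bin at 66530001 both arrays were under theirs (0.041 and 0.168, against 0.133 and 0.232). The part of plus-strand brightness in the shares was not tested.

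Opposite the deleted 3′ part of Ube3a, the antisense level was below both wild types on all 3 arrays. Its level was -0.37 in the paternal deletion, -0.26 and 0.34 in the first and the second double deletion, and 1.48 and 1.52 in the wild types. The paternal deletion and the double deletion titled del s-u/0.9 did not differ past the test (-0.11, SE 0.05, adjusted p = 0.236). Their difference passed with less of the background added back: it was -0.28 with a normexp offset of 16 and -1.34 on background-subtracted signal. Against the one titled del s-u/4.8 the paternal deletion was lower by 0.71 (SE 0.05, adjusted p = 0.00487), and on the all-probe scale both differences turned (0.33 and 0.42). In shares of wild type, 1.76%, 6.43% and 22.6% were left, with the 1.76% and 6.43% from signal within the range of the negative controls. The maternal deletion, which keeps the paternal promoter, had 74.4%. None of the 4 bins there was called against the first double deletion, though all 4 lay below the range of the lower flank, and all 4 were called lower against the second, from -0.65 to -0.79.

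Across the deletion border the paternal deletion changed its place among the 3 arrays, while the double deletions kept their order. On the 3′ side the paternal deletion and the first double deletion lay within the range of the negative controls, so their order there is not resolved. Opposite the 5′ part of Ube3a, which no sample lacks, the paternal deletion had the highest antisense level of the 3, at 0.40, and the double deletions had -0.49 and -0.20, against 0.92 and 0.99 in the wild types. It was 0.88 higher than the double deletion titled del s-u/0.9 (SE 0.06, adjusted p = 0.00595) and 0.59 higher than the one titled del s-u/4.8 (SE 0.06, adjusted p = 0.00927). The shares of wild type left were 47.5%, 8.28% and 17.9%, with the 8.28% from signal within the range of the negative controls. The maternal deletion, which keeps the paternal promoter, had 69.8%. All 5 bins were called higher in both comparisons, and the differences were larger nearer the border. From the bin at 66480001 to that at 66520001 they were 0.45, 0.60, 0.83, 0.95 and 1.25 against the first double deletion. Against the second they were 0.26, 0.41, 0.60, 0.58 and 0.68. The last of these bins reaches past the border into the deletion. The minus-strand step between the paternal deletion and either double deletion fell on the same probe pair, 66526853 and 66526901, as the plus-strand deletion step. On the Snrpn side the largest minus-strand step fell on the plus-strand pair, 67147632 and 67147710, only against the second double deletion. Against the first it fell between 67050631 and 67050684, 97026 bases inside the deletion.

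The gap between both parts of one array does not depend on the scale value subtracted. It does depend on the offset, since some minus-strand levels lie within the negative controls. These are the 3′ level of the paternal deletion and both levels of the first double deletion. The minus-strand level of the 5′ part minus that of the 3′ part was 0.76 in the paternal deletion, -0.23 and -0.54 in the first and the second double deletion, and -0.56 and -0.53 in the wild types. That gap was above 0 in the paternal deletion and below 0 on the double-deletion and wild-type arrays. The gap between the plus and the minus strand over the 3′ part was 1.77, 1.58 and 0.75 on the 3 mutant arrays and 0.10 and 0.01 in the wild types.

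Sense Ube3a RNA over the 3′ part, for which each of the 3 samples has 1 template, was highest in the paternal deletion and lowest in the double deletion titled del s-u/4.8. The levels were 1.40 in the paternal deletion, 1.32 and 1.10 in the double deletions, 1.58 and 1.53 in the wild types, and 0.70 in the maternal deletion. The only copy in the maternal deletion is the paternal one with its Snrpn promoter. Its antisense level opposite this part was 1.27, against 1.48 and 1.52 in the wild types. In sense level, all 3 samples of the comparison lay between the maternal deletion and the wild types. The paternal deletion differed by 0.08 from the double deletion titled del s-u/0.9 (SE 0.05, adjusted p = 0.335) and was 0.31 higher than the one titled del s-u/4.8 (SE 0.05, adjusted p = 0.0243). That call was lost when the scale was the median of the outside probes (0.21, against -0.0080 for the other double deletion) or when the median over probes replaced the mean (0.19). On the linear scale 75.3%, 69.5% and 61.5% of the wild-type level was present, and 39% in the maternal deletion.

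The last bin of the Ube3a block held the largest sense difference inside the deletion against the double deletion titled del s-u/4.8. From 66560001 to 66570000 the plus-strand level was 2.09 in the paternal deletion, 2.03 and 1.53 in the double deletions, 2.27 and 2.22 in the wild types and 0.66 in the maternal deletion. The paternal deletion was 0.56 higher than the double deletion titled del s-u/4.8 (adjusted p = 0.00715) and differed by 0.06 from the other (adjusted p = 0.474). Over the 4 bins of the 3′ part 2 were called higher against the double deletion titled del s-u/4.8 and none against the one titled del s-u/0.9.

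Over the 5′ part, which is present on both chromosomes in every sample, sense RNA was above wild type on all mutant arrays and lowest in the paternal deletion. The levels were 1.30 in the paternal deletion, 1.57 and 1.85 in the double deletions, 1.51 in the maternal deletion and 0.95 and 0.89 in the wild types. The paternal deletion was lower by 0.27 than the double deletion titled del s-u/0.9 (SE 0.06, adjusted p = 0.0373) and lower by 0.55 than the one titled del s-u/4.8 (SE 0.06, adjusted p = 0.00916), but the all-probe scale turned both (0.16 and 0.58). The first of these calls was lost on background-subtracted signal (-0.28) and with the median over probes (-0.28). Of the 5 bins, 3 and 4 were called lower. At the start of the block the double deletions parted: in the bin from 66490001 to 66500000 the one titled del s-u/4.8 had 1.65, against 0.97 in the one titled del s-u/0.9, 0.92 in the paternal deletion and 0.92 and 0.88 in the wild types. Within each array the 5′ level minus the 3′ level of the sense strand was -0.10 in the paternal deletion, 0.25 and 0.75 in the double deletions, 0.81 in the maternal deletion and -0.63 and -0.65 in the wild types.

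**Figure D4:**
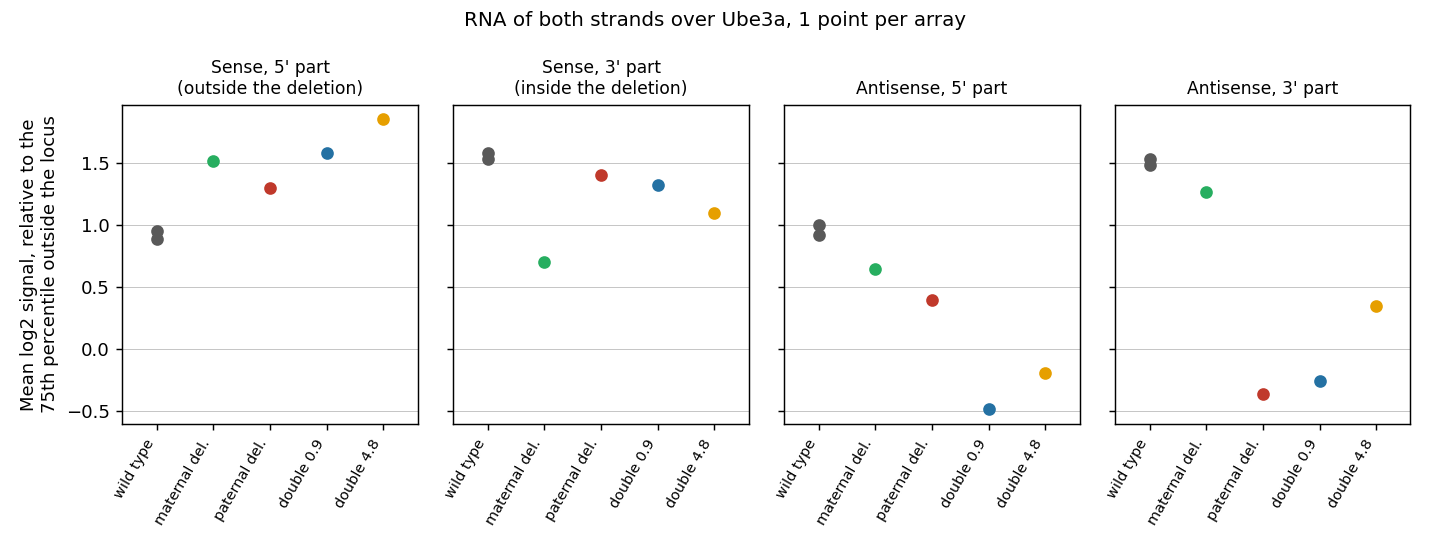
Mean log2 signal over the 5′ part and the 3′ part of Ube3a on the sense (plus) and the antisense (minus) strand, 1 point per array. Opposite the 5′ part the paternal deletion (0.40) lies above both double deletions (-0.49 and -0.20), and opposite the 3′ part it lies lowest (-0.37).

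Below Ube3a the higher antisense level of the paternal deletion tapered off. Over the 100 kb below the gene (66380001 to 66480000) the minus strand had 1.93 in the paternal deletion, 1.72 and 1.80 in the double deletions and 2.02 and 1.96 in the wild types. Neither difference passed over the whole stretch (0.21, adjusted p = 0.0662, and 0.13, adjusted p = 0.186). Of its 10 bins 3 were called higher in both comparisons, those starting at 66440001, 66450001 and 66470001, by 0.37, 0.40 and 0.46 against the first double deletion and by 0.29, 0.32 and 0.28 against the second. Farther away, in the lower flank (65890585 to 66380000), differences were between -0.03 and 0.05 on both strands and none passed. Of its 98 bins none was called against the double deletion titled del s-u/0.9 and 2, both on the plus strand, against the one titled del s-u/4.8.

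Beyond the Snrpn end of the deletion plus-strand RNA was above wild type on every mutant array and lowest of them in the paternal deletion. From 67147710 to 67300000 the plus-strand level was 0.95 in the paternal deletion, 1.80 and 1.44 in the double deletions, 1.41 in the maternal deletion and 0.26 in both wild types. Against the double deletions the paternal deletion was lower by 0.86 (SE 0.04, adjusted p = 0.00485) and by 0.50 (SE 0.04, adjusted p = 0.00663), the latter turning to 0.63 on the all-probe scale. All 15 bins were called lower in both comparisons, the largest being those from 67290001 to 67300000 (0.07 in the paternal deletion, 1.03 and 0.74 in the double deletions) and from 67150001 to 67160000 (1.02, 1.98 and 1.60). From 67300001 to 67700765 the levels were 0.91, 1.28 and 1.22, with differences of -0.37 (adjusted p = 0.013) and -0.31 (adjusted p = 0.0159), both turning on the all-probe scale (0.07 and 0.81), and 34 and 33 of 41 bins were called lower.

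The minus strand beyond the deletion separated the double deletions from each other. From 67147710 to 67300000 its level was 0.80 in the paternal deletion, 0.47 in the double deletion titled del s-u/0.9 and 0.93 in the one titled del s-u/4.8, against 0.87 and 0.83 in the wild types. The paternal deletion was 0.33 higher than the first (adjusted p = 0.0195) and differed by -0.13 from the second (adjusted p = 0.137). Farther out, to 67700765, the levels were 1.40, 0.96 and 1.56, with differences of 0.44 (adjusted p = 0.0262) and -0.15 (adjusted p = 0.221). The shares of wild type were 92.6%, 50.7% and 116% near the deletion and 89.3%, 39.9% and 109% farther out. Of 56 bins in the flank, 46 were called higher against the double deletion titled del s-u/0.9, and 4 were called lower against the one titled del s-u/4.8. The part of the 0.9 and 4.8 alleles in this split cannot be told apart from sample differences, since each was measured on 1 array.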

How the data were processed

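The members and region lists were chosen with earlier results of these data known. Cy5-labelled first-strand cDNA of 15 µg total RNA was hybridised to 1 slide of custom Agilent arrays, per the labels' protocols, and 1 slide and scan leave no batch to fit. The authors deposited scanner files that hold red median intensity per spot on a linear scale, not normalized between arrays. They come, per the file headers, from Agilent Feature Extraction 10.7.3.1 on mm9, and the submitters' processing notes name 10.9. The authors also deposited a matrix of the same intensity times 1 factor per array (0.859 to 1.024), whose origin the sources used here do not give. It holds no outside probes, so it was used as an alternative on that scale and not on the planned one. Its column medians were 75.4 for the paternal deletion and 76.9 and 105.8 for the double deletions.

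Of 57933 spots that are not controls, outlier spots were left out and the rest averaged into 53834 probes. With limma 3.58.1 (R 4.3.3), intensity was background-corrected by normexp with an offset of 50 and converted to log2. Each value was then reduced by the array's 75th percentile of the 3338 outside probes (2752 plus-strand and 586 minus-strand). Strand follows the coordinate order of a probe. The 47730 tiled probes well above background on at least 1 of the 6 total RNA arrays were averaged into regions and 10-kb bins of each strand (minimum 3 probes). A two-sided limma fit (eBayes) with 5 groups was adjusted by Benjamini-Hochberg over 382 bins and regions, with a threshold of 0.05, and leaves 1 residual degree of freedom. The p-values reflect only how far these samples spread, which may be technical. Shares of wild type use background-subtracted signal divided by the same percentile. Regions are named first. Then come the 5 bins per strand with the largest difference among those called with the same sign in both comparisons, and the 5 minus-strand bins with the highest share left. Other bins named were chosen after their values were seen. On simulated data, 63.3% and 60% of changes of 0.5 and 96.7% and 93.3% of changes of 1.5 were recovered among 382 features for the comparisons with the first and the second double deletion. The simulated noise of every array came from the wild-type spread and was independent between features. It therefore cannot show whether mutant arrays vary like wild types. Alternatives were other scales, background corrections, probe filters, summaries and bin widths, the matrix, pooled double deletions, either wild type left out and, chosen after seeing the data, bins bright on the plus strand left out.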

Additional observations from a re-analysis of the deposited data

How the results depend on the processing

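Below, the first comparison is against the double deletion titled del s-u/0.9 and the second against the one titled del s-u/4.8. Of the results for the Ube3a parts, the span between Ube3a and Snrpn and the counts of bins, 119 kept their direction and their side of the threshold, 16 lost the threshold, 6 passed it newly and 5 turned. The other regions and shares gave 288, 16, 31 and 37, and 12 untested shares moved by more than the wild types' spread. The antisense excess opposite the Ube3a 5′ part and the deficit between Ube3a and Snrpn lost the threshold only with the double deletions as 1 group (0.74 and -1.76), and their direction never turned. That setting puts the difference between the double deletions into the spread: no bin was called in limma's fit (0 in each comparison, with 55 below an unadjusted p of 0.05). It gave 0.19 for sense 3′ in the second comparison, -0.41 for sense 5′ in both and -0.41 opposite the 3′ part in the second.

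Scaling on all probes added 0.44 and 1.13 to every difference by construction. It called 322 and 354 bins, made the sense 3′ difference pass in the first comparison (0.52), and turned sense 5′ (0.16 and 0.58) and antisense opposite the 3′ part (0.33 and 0.42). On the minus strand it turned the 30 kb next to Ube3a (0.29 and 0.34), the dim stretch (0.17 and 0.16) and, in the first comparison, the stretches nearest to Snrpn (0.086 and 0.049). In the second it turned the lower flank (1.09) and the near and far upper flank (0.996 and 0.97). Plus-strand values that turned were 1.03 between Ube3a and Snrpn, 1.07 below Ube3a, 0.63 and 0.81 in the near and far upper flank in the second comparison, and 0.072 in the far flank in the first.

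Scaling on the median of outside probes turned sense 3′ in the first comparison (-0.0080) and took it below the threshold in the second (0.21). Bins of 20 kb gave 82 and 69 calls among 180, fewer because there are fewer bins. The median over probes lost sense 3′ in the second comparison (0.19) and sense 5′ in the first (-0.28). Background subtraction lost sense 5′ in the first (-0.28). The antisense difference opposite the 3′ part passed in the first comparison on background-subtracted signal (-1.34), with an offset of 16 (-0.28) and on the series matrix (-0.27). The cause of these changes was not tested.

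Differences near 0 that never stood for a call also turned. In the lower flank on the minus strand these were -0.0090 (background subtracted), -0.010 (median over probes), -0.0010 (outside probes well above background), -0.056 (median of outside probes) and -0.036 (series matrix) in the first comparison and 0.0015 (1 group) in the second. With 1 group the upper flank gave 0.10 and 0.14. On the plus strand between Ube3a and Snrpn the first comparison gave -0.047, -0.033, -0.0043, -0.059 and -0.0052 with background subtraction, 1 group, outside probes above background, their median and the matrix. Below Ube3a it gave -0.013, -0.075, -0.0072, -0.062 and -0.018 with 1 group, the median over probes, and those same 3 scales. The plus-strand lower flank gave -0.044 and -0.0053 in the first comparison and -0.0028, -0.075 and -0.090 in the second.

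No paired analysis was possible because the groups compared have 1 sample each and share fewer than 2 replicate numbers. Leaving out a wild type leaves no spread for a test and was applied to the shares alone. Dim signal limits the shares of the paternal deletion, which lie within the range of the negative controls opposite the Ube3a 3′ part, in the 30 kb next to Ube3a and in both stretches nearest to Snrpn. It also limits those of the first double deletion opposite both parts of Ube3a. The single arrays, the unsettled allele names and the lack of an mm9 annotation limit every comparison here.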
